A study of Mus musculus with 4 samples.

Results

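The members are 8 genes for transcription factors of the mesenchyme, *Prrx1*, *Prrx2*, *Tcf21*, *Foxf1*, *Foxc2*, *Tbx4*, *Tbx5* and *Meox2*, of 21938 protein-coding genes of GENCODE M21. Chromatin accessibility at each was read as the ATAC-seq peaks that overlapped its gene body or the 50 kb on either side (mm10), which is called its window here. The windows of *Foxf1* and *Foxc2*, whose transcription start sites (TSS) lie 31.8 kb apart on chromosome 8, shared 72.0 kb, so the 8 windows joined into 7 stretches of 1005 kb in all. ATAC-seq finds open chromatin as the places where a transposase can cut into DNA. It was performed on 4 cell lines with 1 library each, the SMC lines 1 and 2 and their non-SMC counterparts 1 and 2. All were untreated and came from lung tumors of the *RP* model, mice of mixed C57Bl/6, Balb-c and S129 background that carry Rb1L/L and Trp53L/L, floxed alleles that were recombined by Cre from an adenovirus delivered into the trachea. Its CMV promoter is not limited to 1 cell type. SMC were sorted as NCAM-high CD44-low or negative cells and grew in suspension, and non-SMC were sorted as NCAM-low CD44-high cells and grew attached. GEO's labels give the types as paired, and an SMC line and the non-SMC line of its number are treated as a line pair here, although no label names a shared tumor or mouse. A line stands for a sorted population in culture, and fewer open cells cannot be told apart from less open chromatin per cell.

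Mesenchyme is the loose embryonic tissue that gives rise to fibroblasts, smooth muscle, cartilage and bone, and its cells are patterned by families of homeobox, forkhead, T-box and basic helix-loop-helix factors. *Prrx1* and *Prrx2* are paired-related homeobox genes of limb and craniofacial mesenchyme. *Foxf1*, a target of Hedgehog signalling, *Tbx4*, *Tbx5* and the helix-loop-helix gene *Tcf21* are active in lung mesenchyme, *Foxc2* acts in mesodermal and lymphatic development, and *Meox2* is a homeobox gene of somites and limb muscle. Enhancers of such genes can lie far from the TSS, within introns or beyond neighboring genes, so windows rather than promoters alone were examined.

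The sequences below are 201 bases of the reference genome centered on the summit of the highest peak of a region, from the + strand of GRCm38, the assembly of mm10. They are examples of the regions described below, and they are not the sequence of the cell lines. Of the printed regions, 4 had a peak in both non-SMC lines but not in SMC. None of the sequences overlapped an annotated exon. Capitals mark the AP-1 motif TGACTCA or its reverse complement TGAGTCA, the letters bound by dimers of FOS and JUN proteins.
*Prrx1* intron, non-SMC-only (chr1:163273251-163273451): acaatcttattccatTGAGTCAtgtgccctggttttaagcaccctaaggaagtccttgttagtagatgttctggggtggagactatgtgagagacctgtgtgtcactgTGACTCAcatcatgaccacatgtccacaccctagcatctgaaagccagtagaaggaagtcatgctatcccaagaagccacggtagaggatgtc
*Prrx2* intron, non-SMC-only (chr2:30848335-30848535): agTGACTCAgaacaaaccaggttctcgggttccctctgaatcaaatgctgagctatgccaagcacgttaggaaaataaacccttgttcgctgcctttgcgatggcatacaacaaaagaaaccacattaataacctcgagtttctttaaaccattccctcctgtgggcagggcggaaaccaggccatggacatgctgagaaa
*Foxf1* promoter, non-SMC-only (chr8:121083689-121083889): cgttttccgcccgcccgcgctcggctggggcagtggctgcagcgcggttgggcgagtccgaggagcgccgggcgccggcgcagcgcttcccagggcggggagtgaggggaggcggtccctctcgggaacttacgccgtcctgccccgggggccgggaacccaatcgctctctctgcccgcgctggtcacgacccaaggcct
*Foxl1* side of the *Foxf1* window, SMC line 1 and both non-SMC lines (chr8:121134257-121134457): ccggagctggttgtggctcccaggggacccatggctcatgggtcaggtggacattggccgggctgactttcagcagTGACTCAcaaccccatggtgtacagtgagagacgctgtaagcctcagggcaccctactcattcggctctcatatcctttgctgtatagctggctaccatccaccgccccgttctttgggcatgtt
*Tbx4* downstream, non-SMC-only (chr11:85963028-85963228): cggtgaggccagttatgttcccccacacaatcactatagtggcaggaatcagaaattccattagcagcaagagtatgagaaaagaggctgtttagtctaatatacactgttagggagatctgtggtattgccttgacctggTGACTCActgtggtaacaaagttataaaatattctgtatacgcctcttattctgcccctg
*Meox2* promoter, SMC-only (chr12:37108120-37108320): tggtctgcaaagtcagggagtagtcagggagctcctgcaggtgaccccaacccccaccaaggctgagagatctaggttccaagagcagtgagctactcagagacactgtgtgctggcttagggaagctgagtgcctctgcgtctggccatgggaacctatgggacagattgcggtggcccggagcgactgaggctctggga
*Prrx1* upstream, both SMC lines and non-SMC line 1 (chr1:163338939-163339139): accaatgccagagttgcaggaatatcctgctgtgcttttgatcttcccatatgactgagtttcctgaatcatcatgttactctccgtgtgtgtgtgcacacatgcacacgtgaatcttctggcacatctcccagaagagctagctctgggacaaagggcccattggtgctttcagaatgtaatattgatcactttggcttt
The AP-1 motif stood 2 times in the *Prrx1* intron window and 1 time each in the *Prrx2* intron, *Foxl1*-side and *Tbx4* windows. The *Foxf1* promoter, *Meox2* promoter and *Prrx1* upstream windows held none. In the *Foxl1*-side region the peak of SMC line 1, chr8:121134651-121134776, lay outside the printed bases.

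The 4 lists held between 91057 and 153954 peaks on chromosomes 1 to 19, X and Y. The pileup, or the number of stacked fragments at a summit, was recovered from the deposited values, and it is given below as it stands and as a multiple of the genome-wide background of its library. That background was 0.456 and 1.54 in SMC lines 1 and 2 and 1.49 and 0.639 in the non-SMC lines. Depth is read from it here, and reads were not counted. By this measure SMC line 2 and non-SMC line 1 were more than 3 times as deep as SMC line 1. A peak on the genome-wide background needed a pileup of 3, 5, 5 and 3 in this order, which is 6.58, 3.25, 3.37 and 4.70 times the background. A site could therefore be missed in SMC line 1 and listed elsewhere at the same openness. With 2 libraries of each type the smallest two-sided exact permutation p is 0.333, so no test was run, and values are given per library. Of the sorting markers, *Epcam* had promoter peaks in both SMC lines and no non-SMC line, *Cd44* in SMC line 2 and both non-SMC lines, and *Ncam1* in all 4. Of 8 fibroblast markers, 3 had a promoter peak in each SMC line and 5 in each non-SMC line, with 5 and 3 against 12 and 9 promoter peaks over the whole list. None of the 8 had promoter peaks in both non-SMC lines and no SMC line. *Lum* had none in any library and *Dcn* only 1, in non-SMC line 2. Endothelial promoters with a peak numbered 2, 4, 2 and 3 of 6, immune ones 0, 2, 2 and 3 of 6 and mural ones 1, 3, 2 and 1 of 4. The part of fibroblast-like features of the lines in the results below was not tested.

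Chromatin in the windows of *Prrx2* and *Foxc2* was open at more places in both non-SMC lines than in either SMC line, and no member had more peaks in both SMC lines. *Prrx2* had 16 and 19 peaks in SMC lines 1 and 2 against 23 and 21 in the non-SMC lines, and pairs of values are given in the order of lines 1 and 2 from here on. *Foxc2* had 9 and 16 peaks in SMC against 19 and 17 in non-SMC. These 2 of 8 members are to be read against 14.9% of all protein-coding genes with more peaks in both non-SMC lines and 13.5% with more in both SMC lines. Neither call held at every setting. With 10 kb flanks both were lost, with 100 kb flanks or without peaks at the TSS of other genes that of *Foxc2* was, and that of *Prrx2* was lost per 10000 peaks of the list and with equal numbers of top peaks. Within both line pairs non-SMC was higher in *Prrx2*, *Foxc2* and *Tbx4* (by 8 and 1 peaks in *Tbx4*), against 20.9% of all genes, and lower in *Meox2*, with differences of −2 and −3, also against 20.9%. Without SMC line 2, 6 members had more peaks in non-SMC, against 44.2% of all genes, and without non-SMC line 2 there were 4, against 24.2%. For the other 6 members the types overlapped. *Foxf1* had 7 and 17 peaks in SMC and 19 and 15 in non-SMC, and *Tbx4* had 7 and 15 against 15 and 16, so that in both genes SMC line 2 reached the lower non-SMC line. *Prrx1* varied most, with 2 and 8 peaks in SMC and 23 and 7 in non-SMC, the high value standing in non-SMC line 1 alone. *Tbx5* had 5 and 15 against 6 and 13, and here the second line of each type was the high one. *Tcf21* had 0 and 2 against 1 and 0, and *Meox2* had 2 and 6 against 0 and 3.

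**Figure D1:**
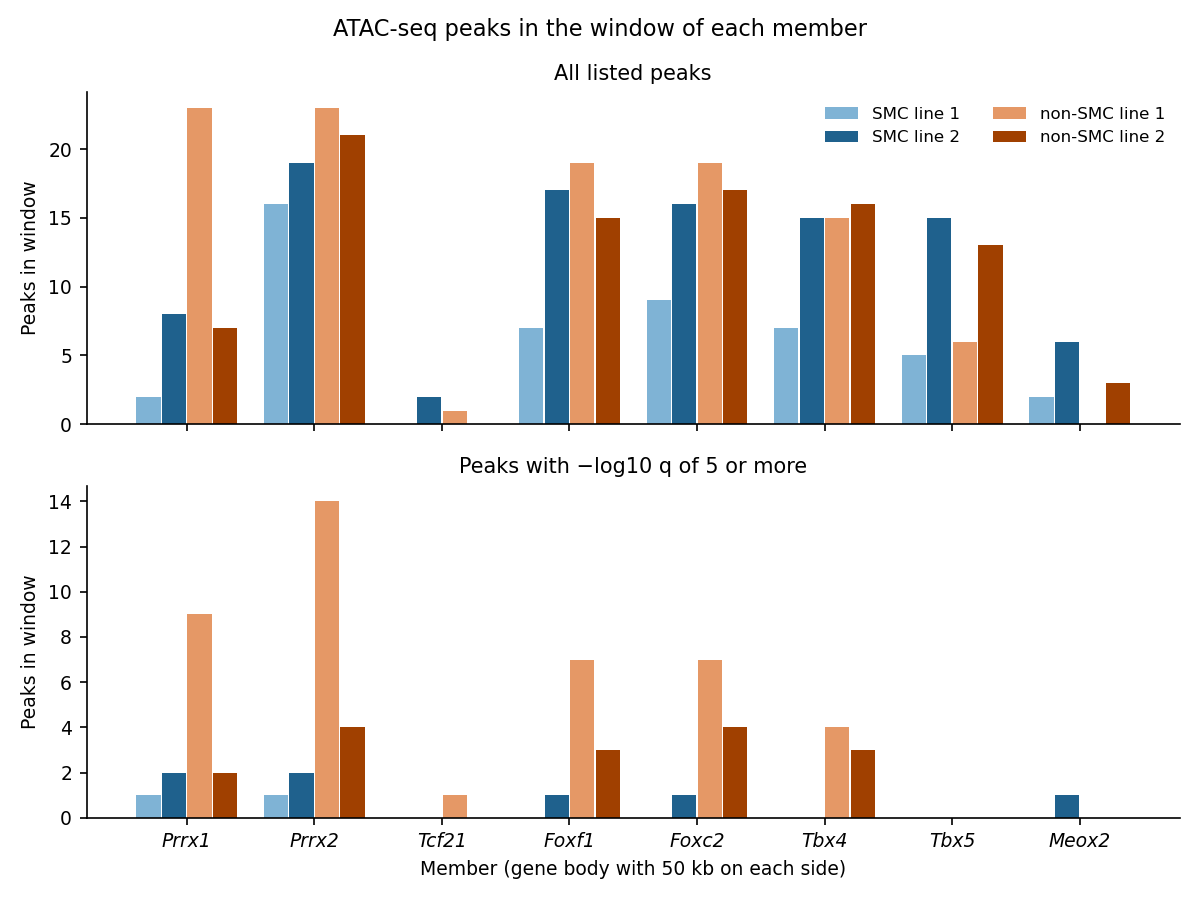
Number of ATAC-seq peaks (y axis) in the window of each member (x axis), 1 bar per library, for all listed peaks (top) and for peaks with a −log10 q of 5 or more (bottom). Only *Prrx2* and *Foxc2* separate the types in the top panel, while in the bottom panel *Prrx2*, *Foxf1*, *Foxc2* and *Tbx4* do, with non-SMC line 1 highest in each.

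The types stood further apart when only strong peaks, those with a −log10 q of at least 5, were counted. *Prrx2* had 1 and 2 strong peaks in SMC against 14 and 4 in non-SMC, *Foxf1* had 0 and 1 against 7 and 3, *Foxc2* had 0 and 1 against 7 and 4, and *Tbx4* had 0 and 0 against 4 and 3. These 4 members were higher in both non-SMC lines and none in both SMC lines, but the same held for 32.2% and 3.2% of all genes, so the genome as a whole leaned the same way. The overlapping windows of *Foxf1* and *Foxc2* share most of these strong peaks. Wherever both genes are called, they are not 2 separate observations. *Prrx1* had 1 and 2 strong peaks against 9 and 2, and the types touched. *Tbx5* had no strong peak in any library, *Tcf21* had 1, in non-SMC line 1, and *Meox2* had 1, in SMC line 2. More bases were covered by peaks in both non-SMC lines in the same 4 members, as in 34% of all genes. *Prrx2* for example had 3031 and 4378 bases covered in SMC against 9792 and 6251 in non-SMC.

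Over the joined windows there were 43 and 87 peaks in SMC and 92 and 78 in non-SMC. The mean was 65.0 ± 31.1 in SMC and 85.0 ± 9.90 in non-SMC (SD, n = 2), a difference of 20 that is smaller than the SD of 23.1 between lines of a type. Within line pair 1 non-SMC had 49 peaks more, and within line pair 2 it had 9 fewer. The difference was −2 without SMC line 1, the shallowest library, and 42 without SMC line 2. Strong peaks numbered 2 and 6 in SMC and 36 and 13 in non-SMC. They made up 4.65% and 6.90% of the window peaks in SMC and 39.1% and 16.7% in non-SMC. Over the whole lists these shares were 14.3% and 17.1% in SMC and 38.0% and 19.5% in non-SMC. Bases covered were 8413 and 17635 against 30622 and 19888. The difference in bases covered, 12231, was larger than the SD of 7076 between lines. Per window its median was 2670.5 bases over the members and 497 over all genes. The pileups of listed peaks were also thinned to the depth of SMC line 1, in a single random draw. This left 43 and 41 peaks in SMC and 65 and 60 in non-SMC, a difference of 20.5 (SD between lines 2.69). Sites that a list lacked could not enter, so this was not peak calling at equal depth. The whole lists then held 91054 and 73150 peaks in SMC and 71813 and 96942 in non-SMC. After thinning, *Prrx1*, *Prrx2*, *Foxf1* and *Foxc2* had more in both non-SMC lines, as did 16.4% of all genes.

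Peaks of the 4 lists merged into 231 regions in these windows, and 23 of them, 9.96%, were non-SMC-only, listed for both non-SMC lines and for no SMC line. Only 2, 0.866%, were SMC-only. Of all 357570 regions of the genome, 7.33% were non-SMC-only and 4.37% were SMC-only. Fewer lists have to match when a library is left out, and non-SMC-only regions then numbered 68 without non-SMC line 1 and 71 without non-SMC line 2, and SMC-only regions 65 without SMC line 1, 31 without SMC line 2 and 5 without non-SMC line 1. A further 5 regions, 2.16%, had a peak in all 4 lists and 183, 79.2%, had a peak in 1 list only. Of all regions of the genome these shares were 3.81% and 76.9%. The non-SMC-only regions fell to *Prrx2* (9), *Foxc2* (7), *Foxf1* (6), *Tbx4* (4), *Prrx1* (2) and *Tbx5* (1), with those of the shared *Foxf1* and *Foxc2* stretch counted for both, and *Tcf21* and *Meox2* had none. Their pileups ran from 6 to 47 in non-SMC line 1, with a median of 21, and from 3 to 19 in non-SMC line 2, with a median of 9. In multiples of the background the medians were 14.1 in both lines. Most lay away from promoters: 4 were within 3 kb of the TSS of any protein-coding gene, 20 lay in an intron of an annotated gene model, and 6 lay in the body of the member itself. The 20 include all 7 of the *Foxf1* and *Foxc2* stretch, which lie in introns of the long gene model Gm20388. Among these is the region 597 bp upstream of the *Foxf1* TSS.

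**Figure D2:**
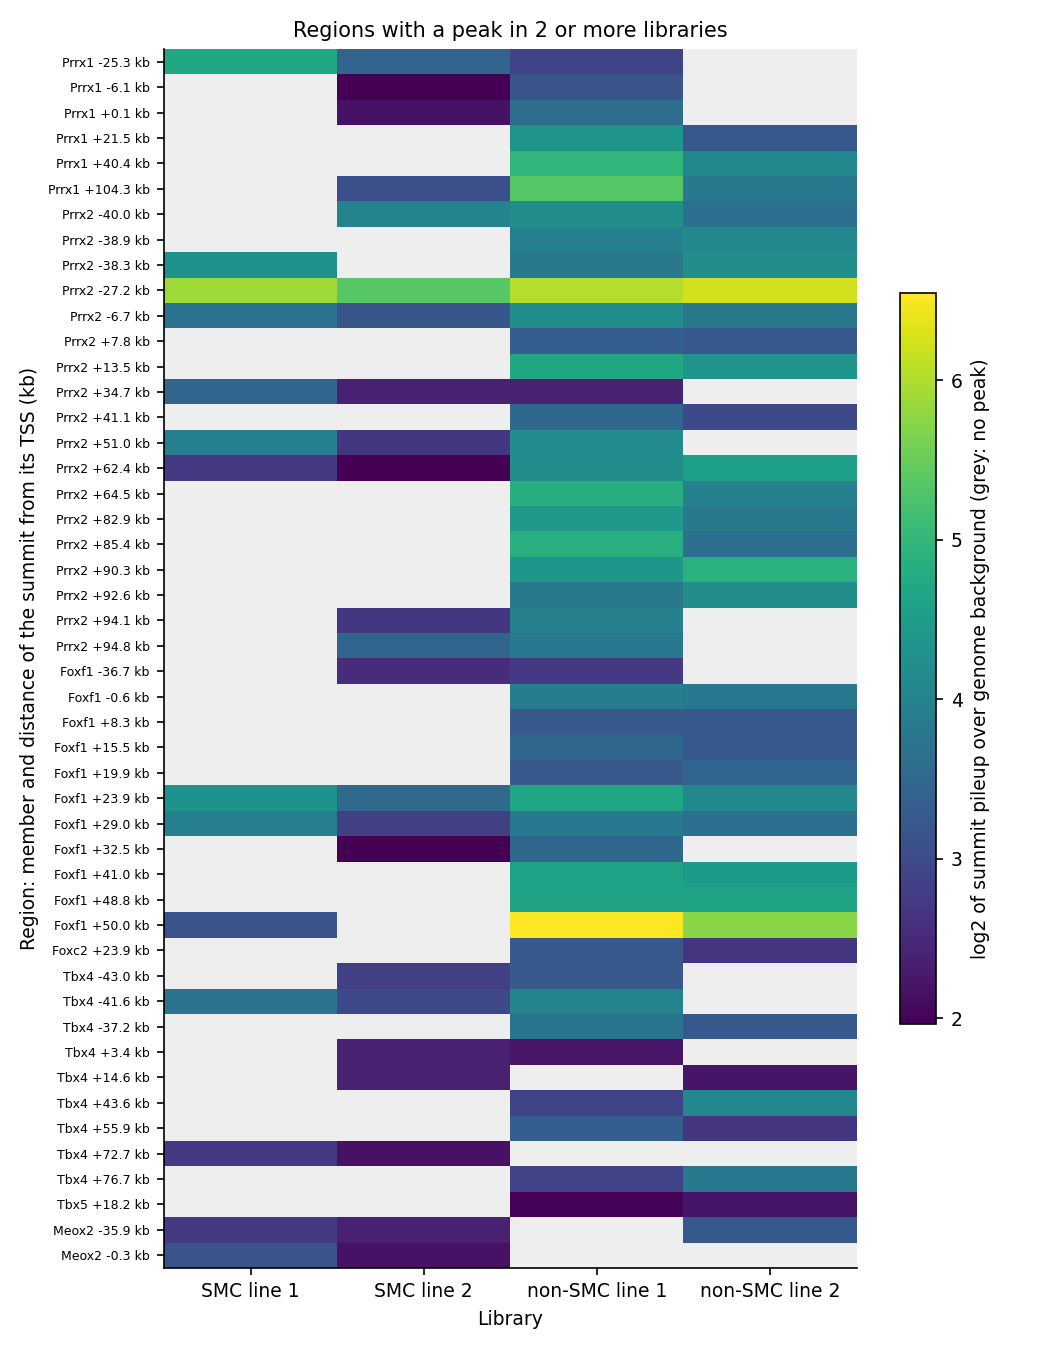
The regions of the member windows with a peak in 2 or more libraries (rows, named by member and distance of the summit from its TSS in kb) against the 4 libraries (columns), with color for the log2 of the summit pileup over the genome background of that library and grey where no peak was listed. Rows that are grey in both SMC columns and colored in both non-SMC columns cluster downstream of *Prrx2* and around *Foxf1*, and the brightest cell is that of the *Foxf1* region 49971 bp from its TSS in non-SMC line 1, at 93.6 times the background.

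*Prrx1* lies on the − strand of chromosome 1 (163245119-163313710). Its highest non-SMC-only region was chr1:163273066-163273553, in an intron 40359 bp downstream of the TSS, with pileups of 47 and 11 in the non-SMC lines, or 31.6 and 17.2 times the background. This is the intron sequence with 2 AP-1 motifs printed above. The other, chr1:163291995-163292285, lay in an intron 21549 bp downstream and had pileups of 30 and 6. Non-SMC line 1 had 2 more intron peaks of similar height, 38606 and 14018 bp downstream with pileups of 43 and 39, that no other library listed. The highest peak of non-SMC line 1 was in the intergenic region chr1:163208942-163209721 beyond the 3′ end, with a pileup of 60, and it was also listed in SMC line 2 with 13 and non-SMC line 2 with 9. The opposite was seen 25329 bp upstream of the TSS at chr1:163338639-163339446. There the pileup was 12 in SMC line 1 and 17 in SMC line 2, or 26.3 and 11.1 times the background, and 11 in non-SMC line 1, or 7.40 times, with no peak in non-SMC line 2. It was the highest peak of the *Prrx1* window in both SMC lines. At the TSS itself, non-SMC line 1 had a peak that covered it with a pileup of 18, SMC line 2 had a peak beside it with a pileup of 7, and SMC line 1 had no peak within 3 kb.

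*Prrx2* lies on chromosome 2 (30834972-30881251, + strand), between *Asb6* and *Ptges*, the gene for a prostaglandin E synthase. The highest peak of the window in all 4 libraries was not that of *Prrx2* but the one at the TSS of *Ntmt1*, a protein N-terminal methyltransferase (chr2:30807317-30808279), with pileups of 27, 63, 98 and 48, or 59.2, 41.0, 66.0 and 75.1 times the background. It varied less than 2-fold between libraries on that scale. The highest non-SMC-only region within *Prrx2* was the intron region chr2:30848247-30848645, 13463 bp downstream of the annotated 5′ end, with pileups of 39 and 13, or 26.2 and 20.3 times the background. It holds the AP-1, TEAD and RUNX motifs in the sequence above. Lower ones stood in *Prrx2* introns 7788 and 41084 bp downstream, with pileups of 15 and 6 and of 17 and 5. Beyond the 3′ end, introns of *Ptges* held 5 non-SMC-only regions. The highest by rank in their lists were chr2:30899267-30899816 with pileups of 42 and 10 and chr2:30925216-30925654 with 31 and 19. A region between *Prrx2* and the first of these, chr2:30897050-30897872, had a peak in all 4 libraries but was uneven, with pileups of 3, 6, 28 and 15, or 6.58, 3.90, 18.8 and 23.5 times the background. The peak of SMC line 2 there overlapped only that of non-SMC line 1, so the pileups are not all of the same site. The local background of peaks in the *Prrx2* window was itself raised over the genome-wide one, by a median of 1.82 and 2.17 times in SMC and 3.14 and 2.49 times in non-SMC, and its part in the counts was not tested.

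**Figure D3:**
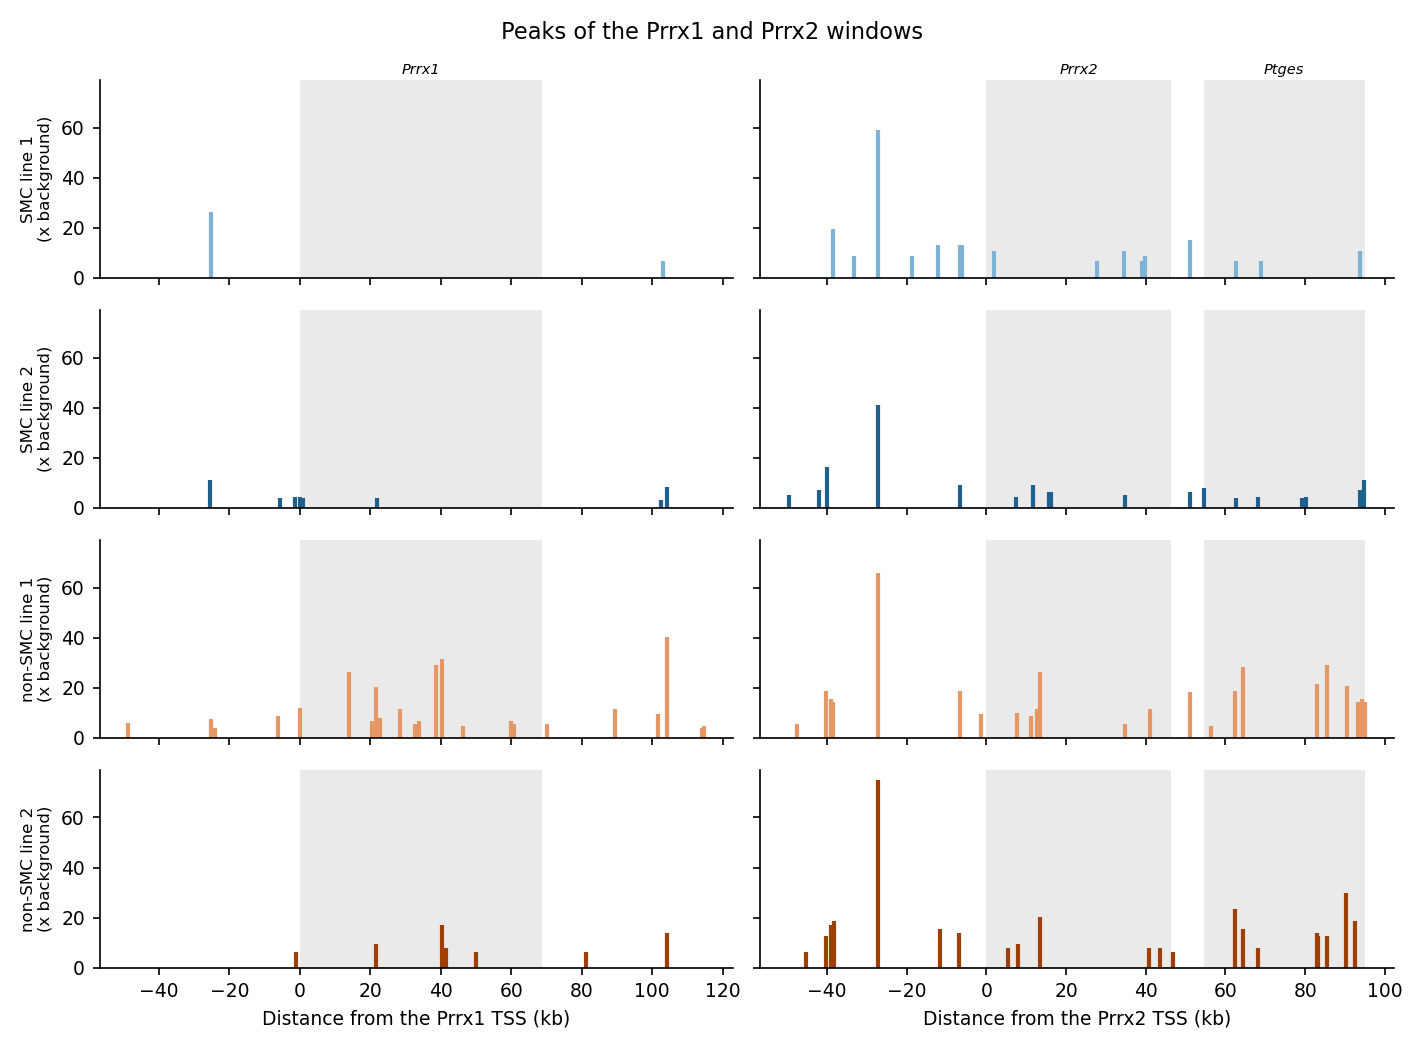
Peaks in the windows of *Prrx1* (left) and *Prrx2* (right) in the 4 libraries (rows), by distance of the summit from the TSS in the direction of the gene (x axis, kb) and summit pileup as a multiple of the genome background (y axis), with gene bodies in grey. The *Ntmt1* peak upstream of *Prrx2* is high in all 4 libraries (41.0 to 75.1 times), and the *Prrx1* body holds peaks above 25 times the background only in non-SMC line 1.

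*Foxf1* (121084386-121088144) and *Foxc2* (121116171-121118895) lie on the + strand of chromosome 8 beside a further forkhead gene of mesenchyme, *Foxl1*, and inside the introns of Gm20388, a long gene model. The highest peak of the joined window in both non-SMC lines lay past *Foxl1*, at chr8:121134076-121134776, 49971 bp downstream of the *Foxf1* TSS, 18186 bp downstream of that of *Foxc2* and 6417 bp downstream of that of *Foxl1*. Its pileups were 139 and 34 in the non-SMC lines, or 93.6 and 53.2 times the background. SMC line 2 had no peak there. The peak of SMC line 1, chr8:121134651-121134776, overlapped only the end of the peak of non-SMC line 1. It had a pileup of 4, or 8.77 times, and no SMC peak stood at the non-SMC summits. Beside this region, chr8:121133070-121133486 was non-SMC-only with pileups of 37 and 16, or 24.9 and 25.0 times. On the other side of *Foxl1*, chr8:121124940-121125887, 2520 bp upstream of its TSS, was non-SMC-only with pileups of 36 and 14, or 24.2 and 21.9 times. These high regions thus lay nearer to *Foxl1* than to the members, and which gene they act on was not tested. At *Foxf1* itself the non-SMC-only region chr8:121083511-121083896, 597 bp upstream of the TSS, had pileups of 22 and 9, or 14.8 and 14.1 times. Of the 41 regions of the *Foxf1* window and the 44 of the *Foxc2* window, the same 2 had a peak in all 4 lists. Of all regions of the genome, 3.81% did. The one at the TSS of *Mthfsd*, chr8:121107764-121108631, had pileups of 9, 18, 38 and 11, or 19.7, 11.7, 25.6 and 17.2 times the background, and chr8:121113284-121113569, 2777 bp upstream of the *Foxc2* TSS, had 7, 11, 21 and 8. Over the *Foxc2* TSS only non-SMC line 1 had a peak, with a pileup of 18. The local background was raised here too, by a median of 2.00 and 1.65 times in SMC and 2.75 and 2.03 times in non-SMC at *Foxf1*.

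**Figure D4:**
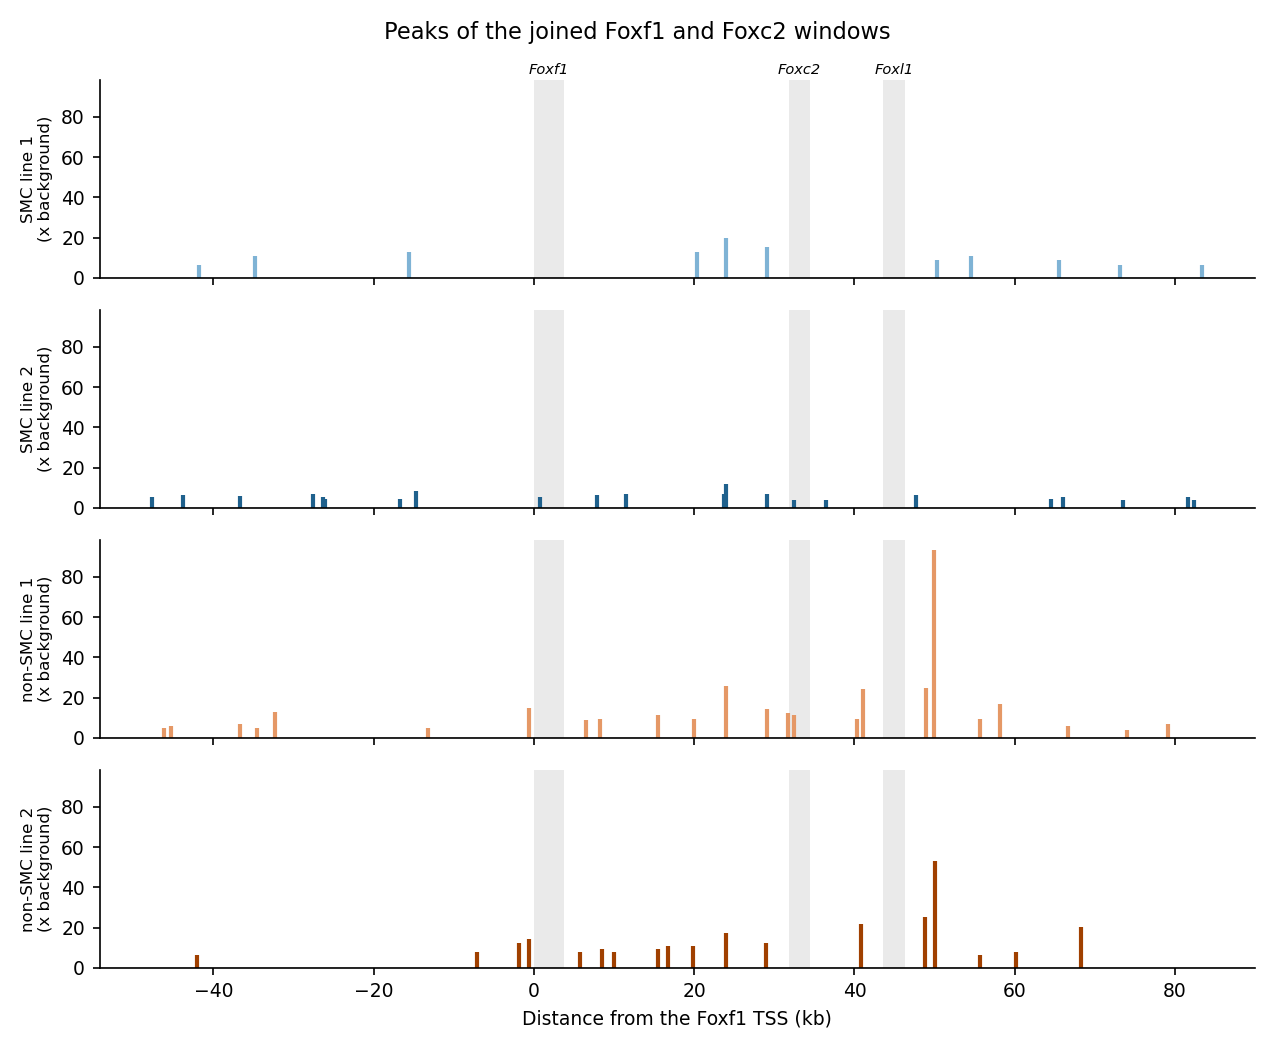
Peaks of the joined *Foxf1* and *Foxc2* windows in the 4 libraries (rows), by distance of the summit from the *Foxf1* TSS (x axis, kb) and summit pileup as a multiple of the genome background (y axis), with the bodies of *Foxf1*, *Foxc2* and *Foxl1* in grey. The peak past *Foxl1* reaches 93.6 and 53.2 times the background in non-SMC lines 1 and 2. The SMC line 1 peak of 8.77 times there overlaps only the end of that of non-SMC line 1. Peaks of 21.9 to 25.0 times the background stand on either side of *Foxl1* in both non-SMC rows.

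*Tbx4* (chromosome 11, 85886422-85916097, + strand) and *Tbx5* (chromosome 5, 119832668-119885219, + strand) encode related T-box factors of lung and limb bud, and they differed. *Tbx4* had 3 non-SMC-only regions in the intergenic stretch beyond its 3′ end. At chr11:85963020-85963238, 76706 bp from the TSS, the pileups were 11 and 9, or 7.40 and 14.1 times the background. At chr11:85929685-85930088 they were 11 and 11, and at chr11:85941971-85942654 they were 15 and 4. Each of the 3 held an AP-1 motif. The fourth, 37183 bp upstream in an intron of Gm11444 and 1094 bp from the TSS of that gene, had pileups of 20 and 6. *Tbx4* also had 1 of the 2 SMC-only regions, chr11:85959058-85959217, with low pileups of 3 and 7. *Tbx5* had a single non-SMC-only region, chr5:119850811-119851078 in an intron, and its pileups of 6 and 3 were at the lower end of what the lists hold. The highest peaks of its window had pileups of 5, 9, 7 and 5. Of its 38 regions, 37 stood in 1 list only, as did 76.9% of all regions of the genome.

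*Tcf21* and *Meox2* did not show the lean to non-SMC. In the *Tcf21* window (gene at chr10:22817281-22820174, − strand) only 3 peaks were listed, each in 1 library and none within 3 kb of the TSS. The highest, in non-SMC line 1 at chr10:22815615-22816092, lay just beyond the 3′ end with a pileup of 17, or 11.4 times the background, and both peaks of SMC line 2 had the lowest pileup that this line could list, 5. *Meox2* (chromosome 12, 37108540-37179534, + strand) had its SMC-only region at the promoter, chr12:37108105-37108698, with pileups of 4 in SMC line 1 and 7 in SMC line 2, or 8.77 and 4.55 times the background. The summits of these peaks lay 320 bp upstream and 65 bp downstream of the TSS, so they overlapped without coinciding. A second promoter peak, in SMC line 2 only, had a pileup of 11. The highest peak of the window, chr12:37118075-37118438, was also in SMC line 2 only, in the gene 9705 bp downstream of the TSS, with a pileup of 30, or 19.5 times the background. Non-SMC line 1 listed no peak in the *Meox2* window, and non-SMC line 2 listed 3 with pileups of 3 to 6.

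Promoters were taken as 3 kb on each side of the annotated 5′ end. None of the 8 had promoter peaks in both non-SMC lines while SMC lacked them, against 2.45% of all genes, and 1, *Meox2*, had the opposite pattern, against 3.08%. With shares this low, counts of 0 and 1 among 8 genes cannot be told apart from those of all genes. *Foxf1* came closest. It had 1 and 2 promoter peaks in the non-SMC lines, and SMC line 2 had 1 further into the gene, 824 bp from the TSS, with a pileup of 8, while SMC line 1 had none. Without SMC line 2, *Foxf1* and *Prrx1* had the non-SMC pattern, and the share of all genes at this setting was not counted. *Foxc2* had promoter peaks in all 4 libraries. *Prrx1* had 0 and 3 in SMC against 1 and 1 in non-SMC, *Prrx2* had 1 and 0 against 1 and 0, *Tbx4* had 1 and 1 against 0 and 1 and *Tbx5* had 0 and 1 against 0 and 0. *Prrx1*, *Prrx2*, *Tbx4* and *Tbx5* have further transcript starts within the gene. Over all transcript starts, *Prrx1* had 0 and 4 peaks in SMC against 3 and 2 in non-SMC, *Prrx2* had 1 and 2 against 5 and 4, *Tbx4* had 1 and 2 against 3 and 3 and *Tbx5* had 0 and 1 against 0 and 0, and how many of all genes differ in this way was not counted.

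The AP-1 motif was searched for together with 7 others. It stood within 100 bp of the summit in 11 of 23, or 47.8% (95% exact binomial interval 26.8% to 69.4%, counting error only), against 13 of the other 208 regions of the windows, or 6.25%. This was no particular mark of the members, since 46.8% of all 26224 non-SMC-only regions and 11.3% of all regions of the genome held it. It was found in 2 of 2 such regions of *Prrx1*, 5 of 9 of *Prrx2*, 3 of 4 of *Tbx4* and 1 of the 7 of *Foxf1* and *Foxc2*. Its share was the highest of the 8 motifs at this width only: within 50 bp of the summit AP-1 and RUNX each stood in 21.7%, and within 250 bp AP-1 and SOX each stood in 52.2%. The TEAD motif (GGAATG) stood in 2 of 23, or 8.70%, against 19.3% of all non-SMC-only and 12.6% of all regions. RUNX (TGTGGT) stood in 30.4% against 29.7% and 18.5%, and SOX (ACAAAG or ACAATG) in 30.4% against 27.5% and 26.7%. The T-box motif (AGGTGT) and the E-box (CAGCTG) stood in 3 of 23 each, or 13.0%, against 6.31% and 14.1% of all non-SMC-only and 12.3% and 13.7% of all regions. The homeodomain motif TAATTA and the forkhead motif (TGTTTAC or TGTTTGC) stood in 0 of 23, against 3.41% and 7.31% of all non-SMC-only and 3.44% and 8.73% of all regions. Both strands were read, and matches of different motifs may overlap. A match is only a match of letters.

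Among 24 other transcription factor genes of mesenchyme, 7 had more peaks in both non-SMC lines and 2 in both SMC lines, against 14.9% and 13.5% of all genes. For strong peaks these counts were 11 and 0, against 32.2% and 3.2% of all genes. *Foxl1*, counted among the 7 and the 11, lies in the *Foxf1* and *Foxc2* windows, and *Tbx2*, counted among the 11, lies in that of *Tbx4*, so both share peaks with members. The median difference, non-SMC minus SMC, was 4.5 peaks over the members, 1 over the other factors and 0 over all genes. The largest was at *Gli3*, a Hedgehog effector, with 7 and 18 peaks in SMC and 25 and 34 in non-SMC. *Mkx*, a tendon homeobox gene, had 5 and 3 against 11 and 14, and *Gli2* had 23 and 25 against 31 and 32. At the other end *Tbx15* had 4 and 39 against 8 and 8, a difference made by SMC line 2 alone, and *Gli1* had 16 and 16 against 10 and 16. Among all genes, the difference of *Prrx1*, 10 peaks, stood at percentile 98.0, those of *Foxc2* (5.5) and *Foxf1* (5) at 92.2 and 90.7, and those of *Prrx2* and *Tbx4* (4.5 each) at 88.9. That of *Prrx1* was made by non-SMC line 1 alone. Within line pairs 1 and 2 it was 21 and −1 at *Prrx1*, and 12 and −2 at *Foxf1*. *Tbx5* and *Tcf21* (−0.5 each) stood at percentile 43.3 and *Meox2* (−2.5) at 25.5. The genes outside the windows with peak numbers nearest to the median of the members over the 4 libraries, 6, 15, 17 and 14, were *Card6* (6, 14, 17 and 14), *Chic2* (6, 15, 16 and 15) and *Psat1* (6, 15, 18 and 13), at Euclidean distances of 0.0948, 0.122 and 0.131 on the log2(peaks + 1) scale.

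**Figure D5:**
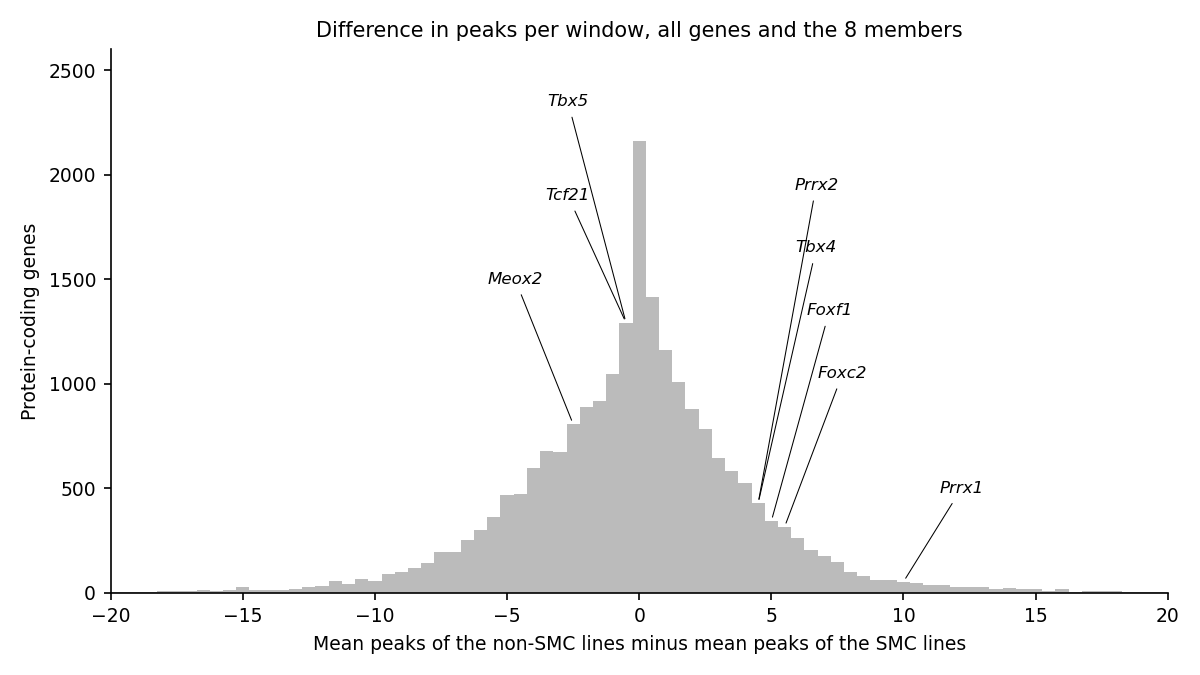
Histogram of the difference in peaks per window, mean of the non-SMC lines minus mean of the SMC lines (x axis, peaks), over all protein-coding genes (y axis, number of genes), with the 8 members pointed out. *Meox2* (−2.5), *Tcf21* and *Tbx5* (−0.5 each) stand left of 0 and the other 5 members stand right of it, from 4.5 to 10 peaks, and the few genes beyond 20 peaks on either side are not drawn.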

How the data were processed

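ATAC-seq covered 4 libraries, 1 per SMC or non-SMC line. Per the study's methods, Bowtie2 2.3.4 aligned the read pairs to mm10, duplicates were removed and peaks were called with MACS2 2.1.1 in each library without pooling, with settings not given in the sources used here. The values the authors deposited for each peak are the fold enrichment, a ratio of summit pileup to local background, and the −log10 p and −log10 q of the summit. The deposited score was not used. These values depend on depth, so a difference in peaks between libraries can come from depth.

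Peaks of the autosomes, X and Y were assigned to windows of GENCODE M21 genes and merged into regions where they overlapped by at least 1 base. The TSS was the 5′ end of the gene. A gene was called where the lowest value of one type was above the highest of the other. Pileup and background were recovered from fold enrichment and p, with whole pileups within 0.001 of −log10 p, for all but 3 to 5 peaks per library. Overlaps, recovery and region calls were tested on simulated data. Per member, at most 3 regions of each type, those with the highest mean percentile of fold enrichment, and the highest peak per library were to be described, and regions in other patterns or in 1 list, the other *Prrx2* intron regions and the fourth of *Tbx4* were added after their values were seen. Members and lists were chosen with earlier results of these data known. Alternatives were other q thresholds, equal numbers of top peaks, thinning, other flanks, units and overlaps, line pairs, each library left out and, for motifs, 50 or 250 bp. Tools were pandas 2.3.3, numpy 2.4.6 and scipy 1.17.1 under Python 3.11.15, with bedtools 2.31.1 for the checks. Single values of 2 genes of the lists are not reported here. RNA-seq was not analysed here.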

Additional observations from a re-analysis of the deposited data

Results flagged for a closer look

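The line pairs went opposite ways in 4 members and in the joined windows, and with a single library of each type in a pair the difference between pairs was not tested. Over the joined windows the difference, non-SMC minus SMC, was 49 peaks in line pair 1 and −9 in line pair 2, which are 58 apart. The differences were 21 and −1 for *Prrx1*, 22 apart, 12 and −2 for *Foxf1*, 14 apart, and 1 and −2 for both *Tcf21* and *Tbx5*, 3 apart in each. SMC line 1 and non-SMC line 2 were the shallower library of their pair, with backgrounds of 0.456 and 0.639 against 1.49 and 1.54, and the part of depth in this was not tested.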

How the results depend on the processing

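The replicate block was read as the sign of the difference in both line pairs, with no test, since a pair holds 1 library of each type. It gave 3 members higher in non-SMC (*Prrx2*, *Foxc2* and *Tbx4*) and 1 higher in SMC (*Meox2*). Region and promoter counts do not use the pairing, so they could not change. Members with more peaks in both non-SMC lines, 2 as reported, numbered 4 with a −log10 q of at least 5, with thinning, per 10000 peaks of the list and by bases covered, 5 with q up to 0.05, and 1 with 10 kb flanks (*Tbx4*) or without peaks at the TSS of other genes (*Prrx2*). They numbered 2 to 6 with a library left out, the 6 without SMC line 2. Members higher in both SMC lines numbered 0 to 3, the 3 without SMC line 1. Of all genes, 32.2% were higher in both non-SMC lines for strong peaks, 16.4% with thinning and 34% by bases covered. Without SMC line 2 the share was 44.2%, and without non-SMC line 2 it was 24.2%. Shares of all genes were not counted with q up to 0.05, per 10000 peaks, other flanks, equal top peaks, no peaks at other TSS, or either line 1 left out. Nor were they for SMC-side or promoter calls with a library left out. Non-SMC-only regions, 23 as reported, were 7 with a −log10 q of at least 5, 9 with 10 kb flanks and 25 to 71 with a library left out. SMC-only regions, 2 as reported, were 1, 0, 1 and 6 with a −log10 q of at least 5, q up to 0.05, 10 kb flanks and 100 kb flanks, and 3 to 65 with a library left out. Fewer libraries to satisfy raise these counts by construction. The difference in peaks was 20.5 with thinning, −2 to 42 with a library left out, 1.81 per 10000 peaks and 12231 bases covered. Members with a promoter peak in both non-SMC lines only numbered 1 (*Foxf1*) with q up to 0.05 or equal numbers of top peaks, and 0 to 2 with a library left out. The AP-1 share was 21.7% within 50 bp. Elsewhere the cause of these moves was not tested. Depth limits SMC line 1 most.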
